A study of Homo sapiens with 8 samples.

Results

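The kinesin genes were taken as every gene symbol that begins with KIF and a digit, in the expression table and in the gene name given to each m6A peak. Of 19475 entries in the expression table, 40 matched. Of these, 39 encode kinesin motor-domain proteins, and the remaining one, KIF1BP, encodes a kinesin-binding protein that is no motor itself. It is named apart below. CENPE, STARD9 and the KIFC genes encode kinesins too, but their symbols do not match and they appear only as a list for comparison.

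HCT116, an established human colorectal cancer cell line, was cultured with or without the bacterium Fusobacterium nucleatum. The untreated cells are called Control and the treated cells F. nucleatum, with 2 replicates each. From each replicate, polyadenylated RNA was sequenced before immunoprecipitation (input) and after pull-down with an antibody against N6-methyladenosine (IP), which makes 8 libraries in 4 groups of 2. All cells were of 1 line, no gene was altered in any group, and Control cells received PBS, per the study's methods, which also give the bacterial dose and the exposure time that the sample labels leave out. The methods call the replicates biological. The labels do not say whether they came from separate cultures, and the p-values measure the spread between these libraries.

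The mRNA levels are fragments scaled to transcript length and to the mapped fragments of the library (FPKM) in the 4 input libraries, and the m6A data are 4 peak lists, each made from 1 IP library and its own input. The peak lists held between 17039 and 18365 peaks. The input files give no counts, so their absolute depth is unknown. From the steps between low FPKM values, the depth of the other 3 input libraries was 0.915 to 1.24 times that of the first Control library, an estimate that rests on 6 to 12 genes for each pair of libraries. The epithelial markers EPCAM, CDH1, KRT8, KRT18 and KRT19 had mean levels from 12.8 to 2152 FPKM. Among 6 markers of blood, stromal and endothelial cells, COL1A1 was at a mean of 4.77 FPKM and the other 5 were at 0.0473 FPKM or less.

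Kinesins are motor proteins that use ATP to move along microtubules or to shorten them. One set carries vesicles, mitochondria and ciliary cargo through the cell, and another builds the mitotic spindle, moves chromosomes and completes cell division. A few atypical members have lost ordinary motor activity and act in signalling. N6-methyladenosine is deposited on mRNA by a METTL3-containing complex, most often in long internal exons and near stop codons. Its usual sequence context has GGAC at its core, with the third letter, the A, carrying the methyl group.

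To show what lies under the kinesin m6A regions described here, the GGAC nearest the middle of a region is printed for the 2 regions found only in Control, for those of the 6 regions with the lowest p-values that hold a GGAC within 1 exon, and for the stop codon region of KIF26A. The sequences were read in the 5′ to 3′ direction of the mRNA from the GRCh37 genome. Capitals mark the GGAC chosen, and a second one in the KIF18A stretch is left in lower case. A match is a description of the letters, not a mapped methylation site. The first 2 lie in KIF3C (chr2:26203280-26203302, minus strand, coding sequence of exon 1) and KIF12 (chr9:116853998-116854020, minus strand, 3′UTR). The next 4 lie in KIF20A (chr5:137522823-137522845, plus strand, coding sequence of exon 19), KIF18A (chr11:28057863-28057885, minus strand, coding sequence of exon 14), KIF3B (chr20:30921816-30921838, plus strand, 3′UTR) and KIF20B (chr10:91497245-91497267, plus strand, coding sequence of exon 20). The last lies in KIF26A (chr14:104646233-104646255, plus strand, 3′UTR beyond the stop codon).
KIF3C: gatgctggaGGACctgcggcggg
KIF12: taggggcggGGACtgggggtgct
KIF20A: agtgaaactGGACcttcggaaga
KIF18A: aaagaatgtGGACaggaggactt
KIF3B: cccactgagGGACtaggttttca
KIF20B: aataatgaaGGACtgagagcatt
KIF26A: ttctgtgcaGGACgggagtctca

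The kinesins spanned a wide range of expression in HCT116 cells, without reaching the most highly expressed genes. Their mean over the 4 input libraries ran from 61.1 FPKM for KIF22 down to 0 in every library for KIF25, KIF2B and KIF6. A mean of at least 1 FPKM, the filter for the test, was reached by 29 members, 28 of them motors. Another 8 lay above 0 but under that filter. The 29 tested members had a median of 6.25 FPKM, against 9.45 FPKM over all 11088 genes tested.

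**Figure D1:**
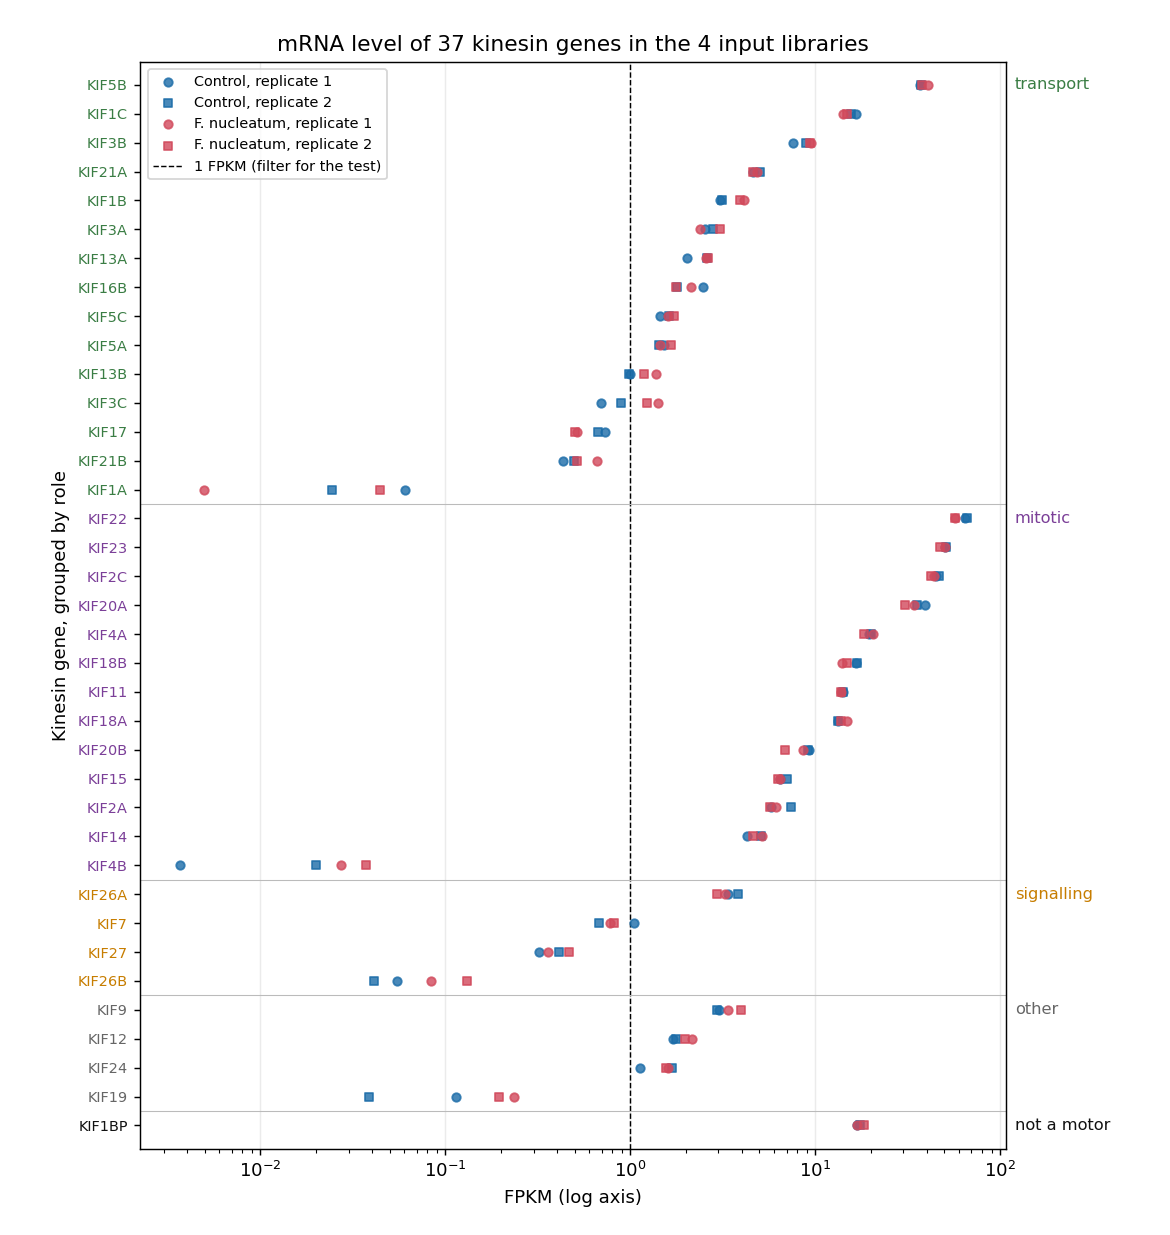
FPKM of each kinesin gene above 0 in the 4 input libraries, on a log axis, with genes grouped by role and ordered by mean level; blue marks Control and red F. nucleatum, circles replicate 1 and squares replicate 2. Of the 5 highest genes 4 are mitotic, led by KIF22 at a mean of 61.1 FPKM, and 1 is the transport kinesin KIF5B, while KIF26B lies below 0.2 FPKM in all 4 libraries.

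The 5 highest kinesins were KIF22, KIF23, KIF2C, KIF5B and KIF20A. Of these, 4 act in mitosis and 1, KIF5B, is the heavy chain of conventional kinesin. KIF22, a chromosome-arm motor, was at 64.3 and 66.1 FPKM in Control and 56.9 and 57.0 FPKM in F. nucleatum, rank 1121 of 19475. KIF23, a subunit of the centralspindlin complex of the dividing cell, was at 50.5 and 50.9 FPKM in Control and 50.2 and 47.4 FPKM in F. nucleatum, rank 1420. In every library KIF22 lay above the highest value of KIF23.

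KIF2C, a microtubule depolymerase of the centromere, was at 45.0 and 46.6 FPKM in Control and 44.1 and 42.2 FPKM in F. nucleatum, rank 1561. KIF5B was at 36.9 and 37.3 FPKM in Control and 40.6 and 37.6 FPKM in F. nucleatum, rank 1844. KIF20A, which brings Aurora B to the midzone in cytokinesis, was at 39.3 and 35.4 FPKM in Control and 34.2 and 30.7 FPKM in F. nucleatum, rank 2001. The ranges of KIF5B and KIF20A over the 4 libraries overlapped, so their order is within the spread of the libraries.

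By role, the 12 tested mitotic kinesins had a median of 14.8 FPKM and ran from KIF14 at 4.78 FPKM to KIF22. The 12 tested transport kinesins had a median of 2.58 FPKM and ran from KIF3C at 1.06 FPKM to KIF5B at 38.1 FPKM. The neuronal heavy chains KIF5A and KIF5C were at means of 1.52 and 1.60 FPKM. KIF1A, a carrier of synaptic vesicle precursors, had a mean of 0.0336 FPKM. KIF4B, a single-exon gene whose sequence is a near copy of KIF4A, was at 0.0221 FPKM, and reads of the 2 genes may be split between them.

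KIF26B, the atypical kinesin that the study followed as an m6A target, ranked 13584 of 19475, at the percentile 30.3 of all entries. The gene lies at chr1:245318287-245872734 on the plus strand. Its level was 0.0548 and 0.0413 FPKM in Control and 0.0841 and 0.132 FPKM in F. nucleatum. Both F. nucleatum values were above both Control values. Group means were 0.0480 ± 0.00953 FPKM and 0.108 ± 0.0335 FPKM (SD, n = 2). Their ratio was 2.24, between values close to 0 FPKM. Of the 37 kinesins above 0, only KIF1A and KIF4B were lower. In the fit over all genes above 0, the log2 change of FPKM + 1 was 0.08 (SE 0.036, limma adjusted p = 0.476), which did not pass the test. The size of that change is set by the pseudocount: with 0.1 added instead of 1 it was 0.48.

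No kinesin passed the test for a change in mRNA with F. nucleatum. The tested members split into 15 with a higher and 14 with a lower estimate, and their median log2 change was 0.016 against 0.014 over all genes tested. The middle 50% of the kinesins ran from -0.09 to 0.11 on the log2 scale, and that of all genes from -0.08 to 0.11. All changes below are log2 differences of FPKM + 1, F. nucleatum minus Control, which understate the change of genes near 1 FPKM.

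At an adjusted p under 0.05 (limma with Benjamini-Hochberg adjustment over 11088 genes), 0 of the 29 kinesins were called. Over all genes the test called 0.667% higher and 0.135% lower, so that few calls would be met among 29 genes. The lowest adjusted p of a kinesin was 0.268. At an unadjusted p under 0.05 there were 2 kinesins higher, KIF3C and KIF1B, and 2 lower, KIF22 and KIF18B. The share over all genes was 7.04% higher and 6.45% lower, so that 4 of 29 is near the background.

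**Figure D2:**
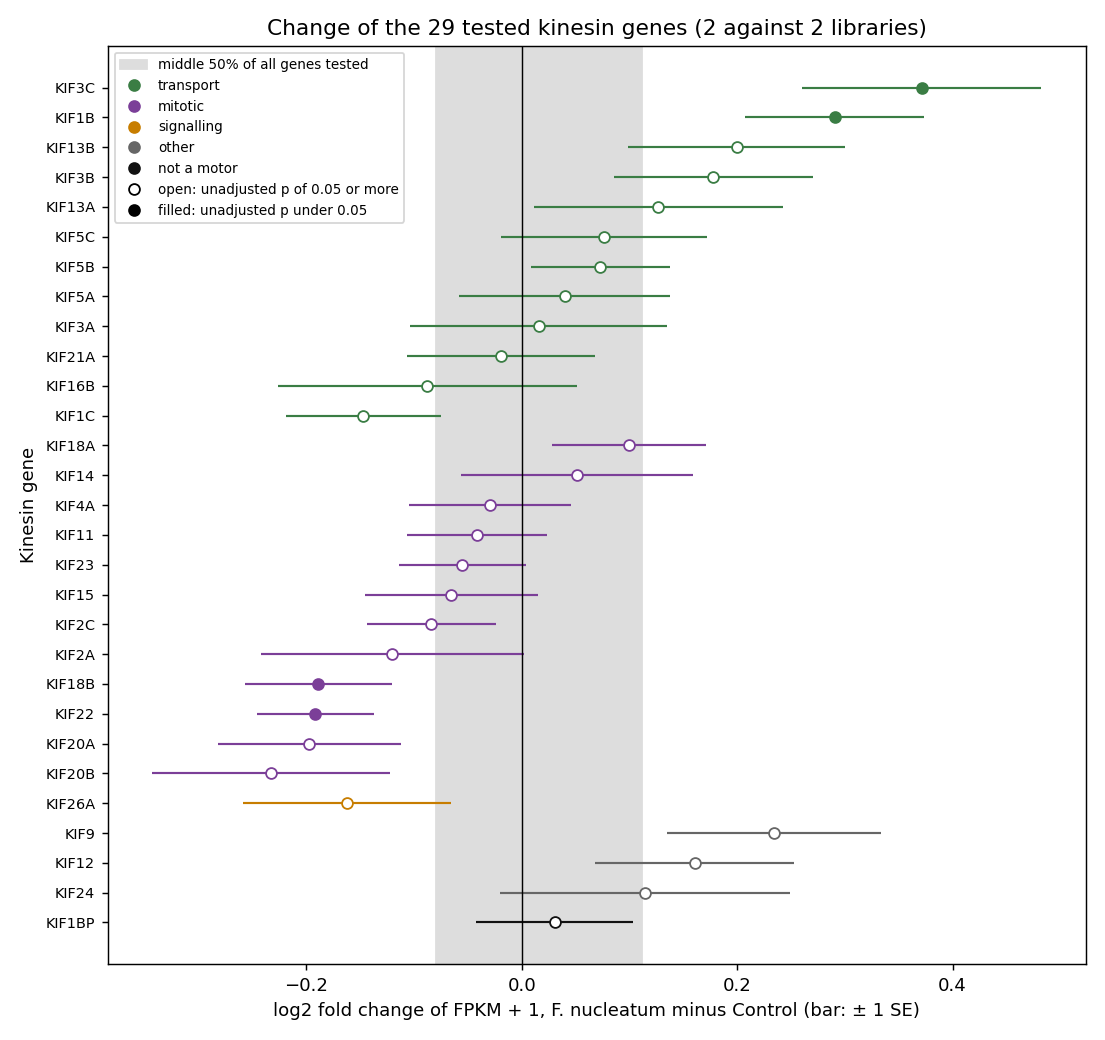
Log2 fold change of FPKM + 1 (F. nucleatum minus Control, bars ± 1 SE) of the 29 tested kinesins by role, with the grey band holding the middle 50% of all genes tested. Of the 12 mitotic kinesins 10 lie to the left of 0 and of the 12 transport kinesins 9 lie to the right, all with adjusted p of at least 0.268.

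Among the transport kinesins, KIF3C had the largest estimate. KIF3C, a kinesin-2 subunit that can pair with KIF3A (chr2:26149467-26205618, minus strand), was at 0.694 and 0.893 FPKM in Control and 1.41 and 1.23 FPKM in F. nucleatum. The 2 groups did not overlap. KIF3C had group means of 0.794 FPKM in Control and 1.32 FPKM in F. nucleatum, so it reached the filter of 1 FPKM only through F. nucleatum. The ratio of the group means was 1.66 and the log2 change 0.37 (SE 0.11, limma adjusted p = 0.285).

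KIF1B, a carrier of mitochondria and of synaptic vesicle precursors (chr1:10270628-10441661, plus strand), was at 3.06 and 3.13 FPKM in Control and 4.10 and 3.92 FPKM in F. nucleatum. Again both treated libraries were above both controls, with a ratio of means of 1.30 and a log2 change of 0.29 (SE 0.08, limma adjusted p = 0.270). KIF13B, a carrier of membrane proteins, was at 0.992 and 0.979 FPKM in Control and 1.38 and 1.18 FPKM in F. nucleatum (log2 change 0.20, SE 0.10, adjusted p = 0.443). KIF3B, the partner of KIF3A in the motor of intraflagellar transport, was at 7.59 and 8.87 FPKM in Control and 9.45 and 9.39 FPKM in F. nucleatum (log2 change 0.18, SE 0.09, adjusted p = 0.456). For these 4 genes the groups did not overlap.

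KIF5B, in contrast, gave a log2 change of 0.07 (SE 0.06), and its Control values lay just below the lower F. nucleatum value. KIF5A gave 0.04 (SE 0.10) with overlapping groups and changed sign under quantile normalization. KIF16B, a motor of early endosomes, was at 2.48 and 1.80 FPKM in Control and 2.12 and 1.77 FPKM in F. nucleatum, with a log2 change of -0.09 (SE 0.14) that turned positive without the first Control library. KIF1C had the lowest estimate of the transport set, -0.15 (SE 0.07, adjusted p = 0.433).

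The mitotic kinesins leaned the other way. KIF22 (chr16:29802048-29816706, plus strand), with the values given above, had group means of 65.2 ± 1.26 FPKM in Control and 56.9 ± 0.0986 FPKM in F. nucleatum (SD, n = 2). Its log2 change was -0.19 (SE 0.05, limma adjusted p = 0.268), and the groups did not overlap. KIF18B, a motor of astral microtubule tips (chr17:43002077-43025141, minus strand), was at 16.5 and 16.7 FPKM in Control and 14.04 and 14.9 FPKM in F. nucleatum. Its log2 change was -0.19 (SE 0.07, limma adjusted p = 0.344), also without overlap.

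KIF20B, a motor of cytokinesis, was at 9.30 and 9.15 FPKM in Control and 8.59 and 6.90 FPKM in F. nucleatum, and had the lowest estimate of all tested kinesins, -0.23 (SE 0.11, adjusted p = 0.422). Without the second F. nucleatum library the estimate was -0.09. KIF20A had a log2 change of -0.20 (SE 0.08, adjusted p = 0.390). KIF2C and KIF23 had -0.08 (SE 0.06) and -0.06 (SE 0.06). KIF4A, a chromokinesin, was at 19.6 and 20.1 FPKM in Control and 20.5 and 18.4 FPKM in F. nucleatum, with overlapping groups and a sign that turned without the second F. nucleatum library. KIF14, another cytokinesis motor, had 0.05 (SE 0.11), also with overlap and with a sign that turned without the first Control or the first F. nucleatum library.

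By sign, 10 of 12 mitotic kinesins were lower and 9 of 12 transport kinesins were higher. The median log2 changes were -0.07 and 0.07, a small split that moved with the processing. In 8 mitotic kinesins both F. nucleatum values were below both Control values, and in 1, KIF18A, both were above. Of the transport kinesins 5 were above and 1 below. Among those above, KIF3C and KIF13B averaged under 1 FPKM in Control (0.794 and 0.986). They reached the filter only through F. nucleatum (1.32 and 1.28 FPKM), which favours finding them higher. Under the filter, the transport kinesin KIF17 was lower without overlap (0.727 and 0.668 FPKM in Control, 0.517 and 0.502 FPKM in F. nucleatum). KIF21B, also under it, was higher (0.432 and 0.496 FPKM against 0.662 and 0.517 FPKM). Over all 29 tested members 8 (27.6%) were above and 10 (34.5%) below without overlap, against 26.1% and 21.1% of all genes tested. Counts by role are a description of genes that share their libraries, and no test of the difference between the roles was run. These roles were set gene by gene and differ in part from the planned grouping by subfamily. KIF12 (kinesin-12, log2 change 0.16) and KIF24 (kinesin-13, 0.11), both higher, were left out of the mitotic set. KIF14 (kinesin-3, 0.05) was counted as mitotic and KIF21A (kinesin-4, -0.02) as transport. The plan also named KIF3A, KIF3B and KIF3C under cilia, and its counts were not made. The mitotic and transport sets also differed in level, as given above, and in median GC content of the transcript, 41.3% against 48.0%. The part of these in the split was not tested. After correction for GC content the median log2 changes were -0.10 and 0.04. Under quantile normalization they were -0.08 and 0.04, and only 7 of 12 transport kinesins were higher. With 1 library left out the mitotic median ran from -0.04 (without the second Control library) to -0.11 (without the first), and the transport median from 0.07 to 0.12, the highest without the first F. nucleatum library.

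Of the remaining kinesins, the atypical KIF26A, known for restraining GDNF-Ret signalling in enteric neurons, was at 3.38 and 3.80 FPKM in Control and 3.25 and 2.95 FPKM in F. nucleatum (log2 change -0.16, SE 0.10, adjusted p = 0.498). KIF9, a motor of cilia and flagella, was at 3.02 and 2.94 FPKM in Control and 3.39 and 3.99 FPKM in F. nucleatum (log2 change 0.23, SE 0.10, adjusted p = 0.386). KIF12, a gene of liver and kidney epithelium, was at 1.70 and 1.77 FPKM in Control and 2.15 and 1.97 FPKM in F. nucleatum (log2 change 0.16, SE 0.09, adjusted p = 0.487). In all 3 the groups did not overlap. KIF24, a centriolar depolymerase, was at 1.13 and 1.67 FPKM in Control and 1.60 and 1.56 FPKM in F. nucleatum, with overlap. KIF1BP, the protein that is no motor, was at 16.9 and 17.6 FPKM in Control and 16.9 and 18.4 FPKM in F. nucleatum (log2 change 0.03, SE 0.07), with overlapping groups and a sign that turned without the second F. nucleatum library.

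The genes around the kinesins were described in the same way. Of the 5 kinesins without a digit in their symbol, 4 had a higher and 1 a lower estimate, 0 passed the test and 0 had an unadjusted p under 0.05. Of 14 light chains and adaptors, KIF1BP among them, 7 were higher and 7 lower by sign, 0 passed, and 2, RHOT2 and MAPK8IP3, were lower at an unadjusted p under 0.05. Of 18 spindle partners 6 were higher and 12 lower by sign, with a median log2 change of -0.08. None of those 18 passed, and 3 of them, AURKB, BIRC5 and KNSTRN, were lower at an unadjusted p under 0.05. Over all genes tested 6.45% were lower at that level, the share to set beside this count and that of the adaptors. KNSTRN, which encodes a spindle and kinetochore adaptor, had 52.7 and 51.7 FPKM in Control and 42.7 and 41.5 FPKM in F. nucleatum (log2 change -0.30, SE 0.06, limma adjusted p = 0.136). Of 15 tested subunits of dynein and dynactin, the motor complex that runs opposite to most kinesins, 9 were higher and 6 lower by sign, and 0 had an unadjusted p under 0.05.

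m6A peaks were named for 28 of the 40 kinesins in at least 1 list and for 22 in all 4. The kinesin peaks numbered 53 and 54 in Control against 53 and 51 after treatment. The difference of -1.5 peaks between the group means (53.5 ± 0.707 and 52.0 ± 1.41, SD, n = 2) was within the spread of the lists (two-sided exact permutation test, p = 0.667). The smallest p that 2 lists against 2 can give is 0.333. Kinesin genes with a peak numbered 24 and 27 in Control against 25 and 24 after treatment (two-sided exact permutation test, p = 1).

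**Figure D3:**
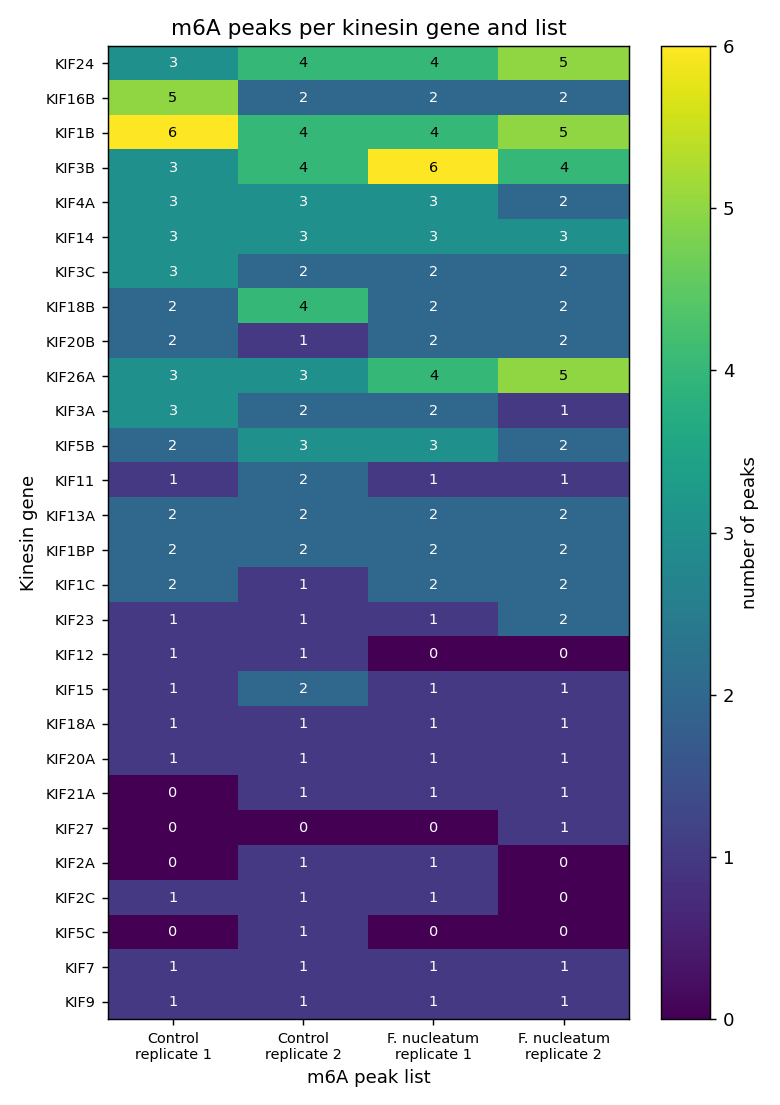
Number of m6A peaks (colour and printed number) for each of the 28 kinesin genes with a peak, in each of the 4 lists, ordered by the number of merged regions. KIF12 has 1 peak in each Control list and 0 in each F. nucleatum list, and most other rows hold similar numbers across the lists.

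Among the 29 tested kinesins, 26 (89.7%) had a peak in at least 1 list, against 83.9% of all genes tested. In all 4 lists it was 21 (72.4%) against 68.7%. The 3 tested kinesins without any peak were KIF22, KIF5A and KIF13B. KIF22 is the highest kinesin of these cells, with 16 GGAC in the 2081 nt of its canonical transcript and a longest exon of 231 nt, and no peak of any name overlapped its exons. It was not alone at this level: of 1732 genes within 2-fold of its mean FPKM, 16.9% had no peak in any list.

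Below the filter, 2 kinesins had a peak. KIF7, a regulator of Hedgehog signalling at the ciliary tip, was at a mean of 0.832 FPKM and had 1 region in all 4 lists. KIF27, its paralogue, was at 0.389 FPKM and had 1 peak in the second F. nucleatum list alone with a deposited p-value of 0.001. Of all genes from 0.1 to 1 FPKM 38.9% had a peak. KIF26B had none in any list, on either strand of its locus. Its canonical transcript of 13593 nt holds 56 GGAC, more than any tested kinesin, and its mean FPKM of 0.0779 fell in the lowest class, above 0 to 0.1 FPKM, where 1.88% of genes had a peak. The study, in contrast, reported from its m6A sequencing a decline of KIF26B peaks near the stop codon. It picked KIF26B among genes with lowered m6A that were also raised in a separate mRNA sequencing experiment, which is not part of the data used here. It also used m6A-RT-qPCR, and RT-qPCR and Western blot for the KIF26B level. Further evidence came from RNA immunoprecipitation of METTL3 and of the m6A reader YTHDF2, and from an mRNA stability assay. The peak lists used here hold no KIF26B peak to set beside those results.

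When peaks that overlapped on the same strand were merged, the kinesins had 72 of the 22001 regions of the series. Of these, 33 (45.8%) held a peak from all 4 lists, 8 from 3 lists, 8 from 2 and 23 (31.9%) from 1. Over all genes 51.5% were in 4 lists and 25.6% in 1. Regions in all lists were the stronger ones, with a median lowest p of 1.3e-18 against 0.00022 for the rest. The p-values are the scores of the deposited lists, read as p-values before correction for many peaks, and values and ranks of peaks rest on that reading.

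Regions were most numerous in KIF24, KIF16B, KIF1B, KIF3B and KIF4A, followed by KIF14 and KIF3C with 4 each. KIF24 had 7 regions at a mean level of 1.49 FPKM, as many as or more than 99.3% of the tested genes with a region. Of these 7, 6 lay side by side in exon 11, a coding exon of 2247 nt. All 7 were weak: 2 were in all lists, with lowest p-values of 3.6e-05 and 4.2e-05, and 3 were in 1 list alone. KIF16B had 6 regions, 1 of them in all lists (8.5e-09 and 3.7e-05 in Control against 5.8e-05 and 0.00063 after treatment) and 3 in the first Control list alone.

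KIF1B had 5 regions, 4 of them in all lists. Its strongest, at 10363421 to 10364981 on chromosome 1, lay in a last exon of 5435 nt that only a shorter, non-canonical transcript uses, and 3 others lay in the 3′UTR of the canonical transcript. KIF3B also had 5 regions, 3 of them in all lists, with 2 centred on its coding exon of 1469 nt and the strongest in the 3′UTR. KIF4A had 5, of which only the 3′UTR region was in all lists.

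The strongest kinesin region lay in KIF20A at chr5:137521992-137523314, with its middle in the coding part of exon 19, the last exon. Its p-values were 1e-124 and 1e-119 in Control against 1e-113 and 4e-90 after treatment, and 3 GGAC lay in its 659 nt. KIF18A, which damps chromosome movement at metaphase, followed at chr11:28042820-28080483 with 4e-78 and 1.6e-98 in Control against 5e-91 and 1.3e-54 after treatment. This region joined several exons and held 4 GGAC. KIF4A had 1.6e-33 and 1.3e-55 in Control against 6.3e-43 and 1.6e-35 after treatment in a 3′UTR region of 478 nt with no GGAC. The 3′UTR region of KIF3B had the least spread of these, with 4e-48 and 5e-45 in Control against 1.6e-45 and 6.3e-50 after treatment.

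**Figure D4:**
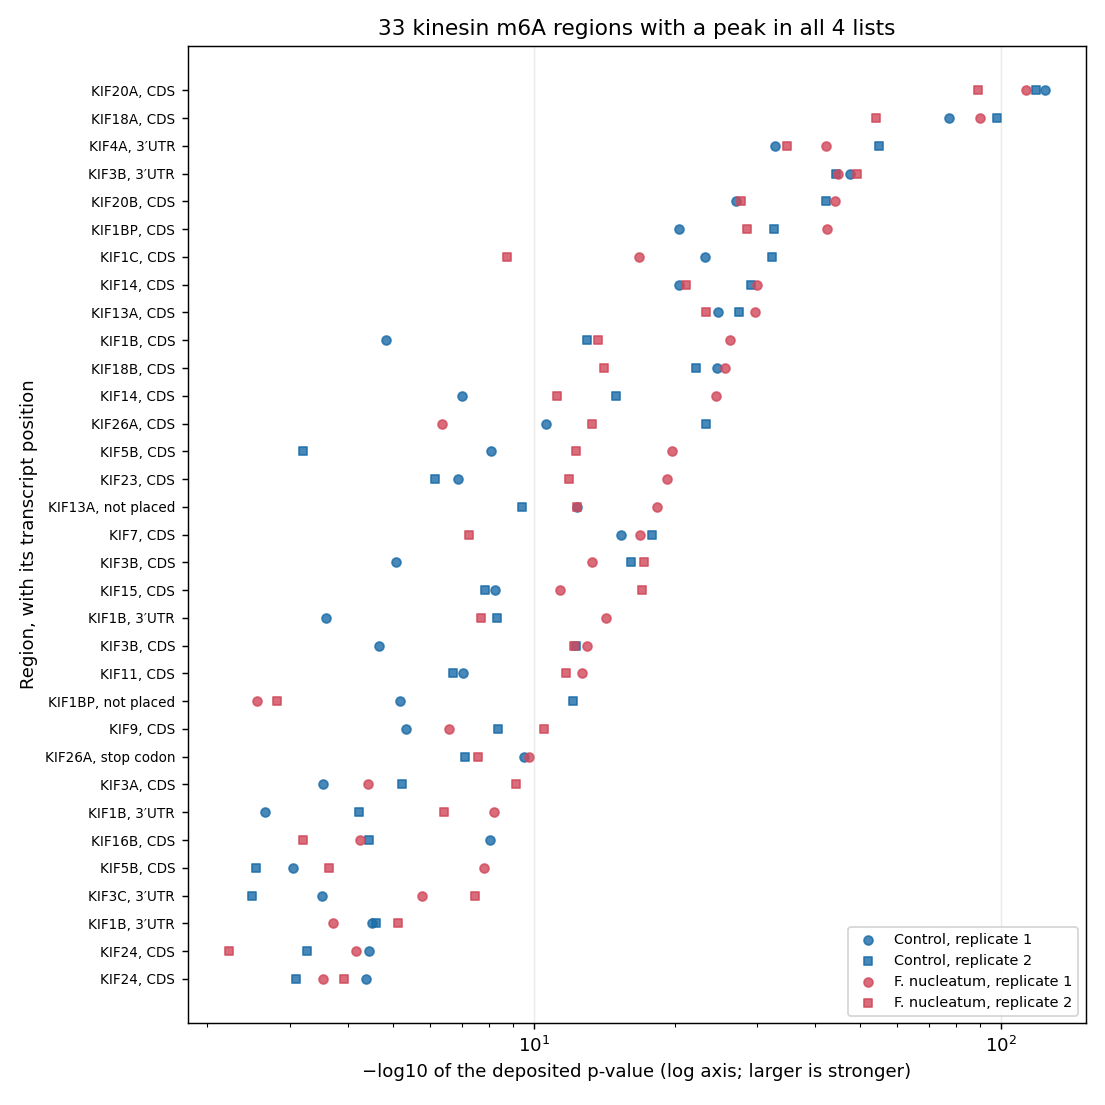
The −log10 of the deposited p-value (log axis) of the 33 kinesin regions with a peak in all 4 lists, ordered by their lowest p; blue marks Control and red F. nucleatum, circles replicate 1 and squares replicate 2. Points of the 2 groups are mixed in most rows, and in 8 rows both red points lie to the right of both blue ones.

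In 8 of the 33 regions (24.2%) both F. nucleatum p-values were below both Control p-values, against 15.7% of all regions in 4 lists. In 4 (12.1%) both were above, against 18.9%. A p-value of this kind moves with the depth of the IP and input libraries and with the level of the mRNA, so a lower p is not a higher share of methylated mRNA. The 8 lay in KIF1B (2), KIF5B (2), KIF3C, KIF11, KIF15 and KIF23. In KIF5B the region at 32307486 to 32310176 on chromosome 10 had 8.1e-09 and 0.00063 in Control against 1.6e-20 and 5e-13 after treatment. In KIF23, whose mRNA was not higher, the region at 69729014 to 69732305 on chromosome 15 had 1.3e-07 and 7.4e-07 in Control against 5e-20 and 1.3e-12 after treatment. KIF1B, KIF5B and KIF3C were among the members whose FPKM was above both controls in both treated libraries, while KIF11, KIF15 and KIF23 were among those below.

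The 4 regions with higher p-values in F. nucleatum lay in KIF1BP, KIF1C, KIF16B and KIF20A. The 5′ region of KIF1BP, at chr10:70748507-70748776, had 6.9e-06 and 7.9e-13 in Control against 0.0028 and 0.0015 after treatment. The other KIF1BP region, centred on its last exon, did not separate the groups (3.2e-21 and 2.5e-33 in Control against 4e-43 and 2.5e-29 after treatment). The KIF1C region, centred on an exon of 4934 nt that holds the stop codon, had 6.3e-24 and 4e-33 in Control against 1.6e-17 and 1.8e-09 after treatment.

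Regions with a peak in both Control lists and in neither F. nucleatum list (lost regions) numbered 2 of 72, in KIF3C and KIF12, against 2.64% of all regions. Regions with the reverse pattern (gained regions) numbered 0, against 2.38%. With 72 regions both counts are near the background, and they depended on the threshold and on each list. When only peaks with p of at most 1e-05 were used, 4 of 39 kinesin regions were lost, none of them in KIF3C or KIF12. Gained ones then numbered 2, 1 of them in KIF3C. In the full lists each of these regions also held a weaker peak of the other group. The shares over all regions were 2.59% lost and 2.25% gained. With any 1 list left out, 4 to 8 of the 65 to 68 kinesin regions were lost and 0 to 7 gained. The shares over all regions in these runs were 4.44% to 11.3% lost and 4.31% to 11.3% gained. The lost KIF3C region, at chr2:26179218-26203414 and mostly in exon 1, had deposited p-values of 0.0033 and 0.0015, which 95.8% and 90.1% of the peaks of the same lists did not exceed. It was thus at the weak end of both lists.

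The first F. nucleatum list had a KIF3C peak of its own, with a deposited p-value of 0.0021, in the same exon of 2125 nt, with 208 nt between the 2 regions. The KIF3C region in all lists, in the 3′UTR at chr2:26151096-26151484, had 0.0003 and 0.0032 in Control against 1.7e-06 and 3.3e-08 after treatment, the opposite order, while its mRNA was higher in both treated libraries. The lost KIF12 region, in the 3′UTR at chr9:116853948-116854097, had p-values of 0.0022 and 0.00045, which 92.9% and 81.0% of the peaks in those lists did not exceed. KIF12 had no other peak, and its mRNA was not lower in F. nucleatum, as given above.

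Kinesin m6A regions lay more often in the coding sequence than those of all genes. Of the 72 regions, 60 could be placed on a canonical transcript, 9 on another transcript of the gene, and 3 on none. By the middle of the region, 42 of the 60 (70.0%) were in the coding sequence, 5 (8.33%) within 100 nt of the stop codon, 11 (18.3%) in the 3′UTR and 2 (3.33%) in the 5′UTR. Over the 18213 placed regions of all genes the shares were 44.9%, 15.9%, 34.2% and 4.99%. These are descriptions, since regions of 1 gene share their mRNA, and the difference was not tested.

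**Figure D5:**
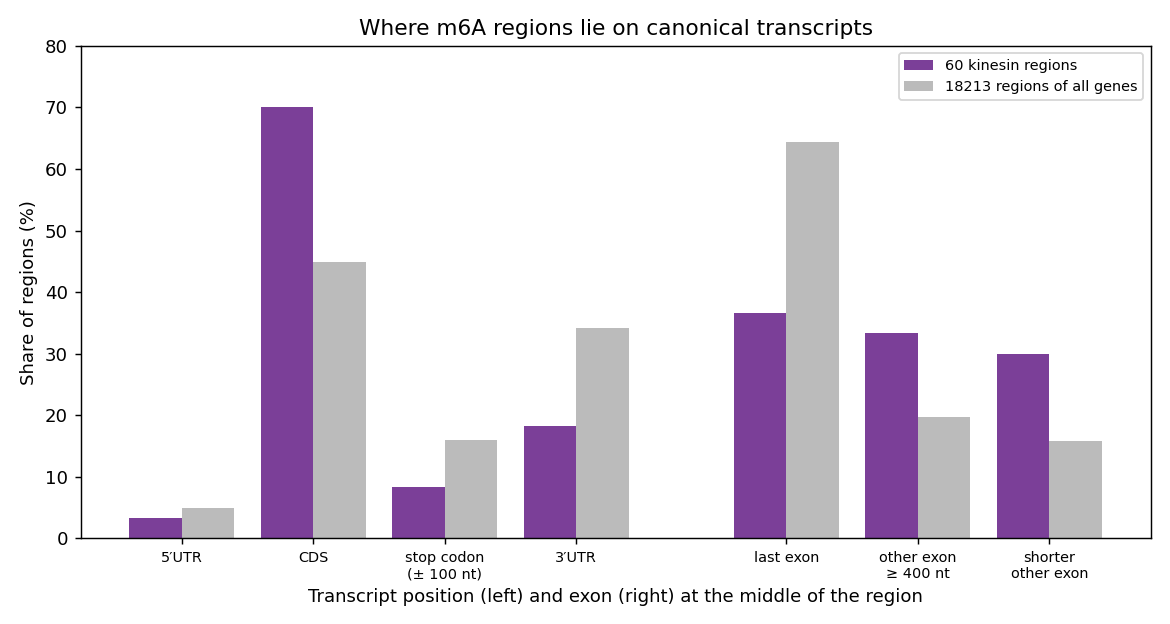
Share of m6A regions (bars, percent from 0) by transcript position on the left and by exon on the right, for the 60 placed kinesin regions (purple) and the 18213 placed regions of all genes (grey). Coding sequence holds 70.0% of the kinesin regions against 44.9% of all, and the last exon 36.7% against 64.4%.

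By exon, 22 kinesin regions (36.7%) lay in the last exon, 20 (33.3%) in another exon of at least 400 nt, and 18 in shorter exons. Over all genes the shares were 64.4%, 19.7% and 15.9%. Of the 72 kinesin regions 33 spanned more than 1 exon, so the class holds for the middle alone. Kinesin mRNAs also differed in structure. The 28 tested kinesins with a canonical transcript had a median of 21.5 exons and 27.9% of the mRNA in the last exon, against 9 exons and 53.6% over the tested genes. The part of this in the positions was not tested. Examples centred on long internal exons are KIF26A in exon 12 of 2917 nt, KIF14 in exon 2 of 1227 nt, KIF20B in exon 20 of 1231 nt and KIF3B in exon 2. The KIF20B region was not confined to that exon: it covered 2190 nt over 10 exons. The regions of KIF14 and KIF3B there that were in all lists spanned 2 exons each. Examples in short exons are KIF5B, with a region centred on exon 19 of 110 nt, and KIF15, centred on exon 32 of 38 nt. These regions spanned 4 and 7 exons.

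The shares of kinesin peaks by position overlapped or met between the groups, while the number of coding peaks did not overlap. Coding peaks numbered 31 and 30 for Control and 33 and 35 for F. nucleatum (two-sided exact permutation test, p = 0.333, the smallest this design can give). As a share, in the coding sequence lay 70.5% and 65.2% of the placed peaks for Control and 68.8% and 76.1% for F. nucleatum (67.8% ± 3.70 and 72.4% ± 5.19, SD, n = 2; two-sided exact permutation test, p = 0.667). Near the stop codon the shares were 6.82% and 10.9% for Control and 8.33% and 4.35% for F. nucleatum. In the 3′UTR they were 22.7% and 19.6% against 20.8% and 19.6%. These shares rest on 44 to 48 placed peaks a list.

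GGAC occurred in 38 of the 60 placed kinesin regions (63.3%), counted on the strand of the mRNA. Among regions of all genes within 20% of the same lengths the share was 70.2%. GGAC was met 3.90 times per kb in kinesin regions and 5.12 times per kb in all regions, while whole mRNAs held 3.50 per kb in the tested kinesins and 3.78 per kb in all genes tested. In the 28 placed kinesin regions found in all lists, 22 (78.6%) held GGAC, against 90.4% over all genes. KIF4A, the KIF14 region centred on exon 30, KIF15 and both KIF5B coding regions were among the regions in all lists with no GGAC. In the KIF26A stop codon region there were 9 in 539 nt, at p-values of 3e-10 and 7.4e-08 in Control against 1.7e-10 and 2.5e-08 after treatment.

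For the genes around the kinesins, all 5 kinesins without a digit in their symbol had a peak, with 7 regions in CENPE and 5 in STARD9, both mitotic motors with very long transcripts. Of the light chains and adaptors 10 of 14 (71.4%) had a peak in at least 1 list, against 83.9% of all genes tested. Of their 22 regions 4 (18.2%) were lost, in KLC1, MAPK8IP1, MAPK8IP3 and RHOT2, and 0 gained, against 2.64% and 2.38% of all regions, a difference that was not tested. RHOT2 and MAPK8IP3 had lower mRNA estimates in F. nucleatum (log2 change -0.26 and -0.25), while MAPK8IP1 and KLC1 did not (0.19 and 0.03). The part of mRNA level in these calls was not tested, and no other peak threshold is given for them. All 18 spindle partners had a peak, and of their 37 regions 1 was gained, in NUSAP1, and 0 lost.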

How the data were processed

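The deposited FPKM values of 4 input libraries and the 4 deposited peak lists, whose score column was read as the p-value of each peak before correction, were used as the authors made them. The score is not described in the sources used here: the methods name MACS2, while the layout is that of exomePeak. Per the labels and the study's methods, reads were trimmed (Trim Galore 0.3.3), aligned to hg19 with HISAT2 2.1.0 and quantified with StringTie, and peaks were called for each IP against its own input. Strand in the counting is not given in the sources used here. log2(FPKM + 1) was fitted with limma 3.58.1 (R 4.3.3, trend) over genes averaging 1 FPKM or more, with Benjamini-Hochberg adjustment. KIF26B was fitted over all genes above 0. The limma step and the merging of peaks were tested on simulated data. Peaks on 1 strand that shared at least 1 bp were merged into regions, and placed on GENCODE 44 transcripts (GRCh37) where at least 90% of their bases fell in exons. Peak numbers were compared with exact permutation tests (SciPy 1.17.1). KIF1BP was matched to its annotated name KIFBP. Roles were set gene by gene, not by subfamily. Members and lists were chosen with earlier results of these data known. Named genes were KIF26B, members with a limma p under 0.05, the 10 largest changes, the 5 highest levels, the 6 with most regions, and members with a lost or gained region or expressed without a peak. Alternatives changed the pseudocount, filter, normalization, trend, GC content, block, peak threshold, overlap and each library.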

Additional observations from a re-analysis of the deposited data

How the results depend on the processing

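No kinesin was called at an adjusted p under 0.05 under any alternative run (another pseudocount, no filter, quantile normalization, no trend, the replicate block, GC correction or any library left out). At an unadjusted p under 0.05 there were 4 to 6 kinesins with all libraries. These were 13.8% to 20.7% of the kinesins tested, against 12.1% to 14.1% of all genes in the same runs. The run without the filter tested 37 kinesins, of which 6 (16.2%) were under 0.05, against 12.1% of all genes. The median log2 change of 0.016 became -0.029 under quantile normalization and -0.028 with GC correction, and ran from -0.043 to 0.038 with 1 library left out. The replicate numbers did not pair the libraries (correlation of the replicate differences 0.024 over 11088 genes), and with the replicate block 0 kinesins were called and the KIF26B change was 0.08. That change ran from 0.05 to 0.11 with 1 library left out. The sign turned under some alternative in 10 of the 29 tested kinesins, all with overlapping groups. With all libraries it turned in KIF3A and KIF1BP with GC correction (-0.028 and -7.6e-05), in KIF3A under quantile normalization (-0.046) and in KIF5A under quantile normalization (-0.029), and with 1 library left out in KIF14 (-0.056 to 0.16), KIF16B (-0.25 to 0.070), KIF24 (-0.051 to 0.28), KIF4A (-0.10 to 0.041) and KIF5A (-0.020 to 0.0997), and also in KIF13A, KIF1BP, KIF21A, KIF2A and KIF3A.

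With peaks of p at most 1e-05, 4 of 39 kinesin regions were lost (KIF18B, KIF1BP, KIF26A, KIF2C) and 2 gained (KIF1B, KIF3C). In the full lists, the lost ones had weaker F. nucleatum peaks, with deposited p-values of 0.0025 (KIF18B), 0.0028 and 0.0015 (KIF1BP), 6.9e-05 (KIF26A) and 2.1e-05 (KIF2C). The gained ones had weaker peaks in both Control lists. The shares over the regions of all genes were 2.59% lost and 2.25% gained. With a reciprocal overlap of 50%, 4 of 102 kinesin regions were lost and 5 gained, against 2.61% and 2.65% of the regions of all genes. With 1 list left out, lost regions ran from 4 to 8 and gained from 0 to 7, of 65 to 68 kinesin regions. Over all regions the shares ran from 4.44% to 11.3% lost and from 4.31% to 11.3% gained. In these runs 1 list stands for a group, and the part of this in the counts was not tested. The difference in kinesin genes with a peak of -1 ran from -2.5 to 0.5 with 1 list left out and turned without the second Control list. By position, the 5′UTR difference turned from -1.13 to 0.996 percentage points with the start of the peak, the coding difference from 4.58 to -9.59 at p of at most 1e-05, and the 3′UTR difference from -0.947 to 0.379 with the start of the peak and 15.2 at p of at most 1e-05. With 1 list left out they ran from -3.31 to 1.04 in the 5′UTR and from -2.53 to 0.634 in the 3′UTR. With 2 libraries a group, no exact test here could reach 0.05, and the unknown input depth limits what can be said of kinesins below 1 FPKM, KIF26B among them.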
